A study of Metroxylon sagu with 6 samples.

Results

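Sucrose metabolism and sugar transport were followed in the leaf of the sago palm through 115 of the 99933 Unigenes listed in the expression files. Unigenes are transcripts assembled without a genome, so they have no chromosome position. A Unigene was a member when its best Nr protein match named the oil palm *Elaeis guineensis* or the date palm *Phoenix dactylifera* and its best Swiss-Prot match named sucrose synthase, sucrose-phosphate synthase, an invertase or fructofuranosidase, SWEET, a sucrose, hexose or polyol carrier, cytosolic fructose-1,6-bisphosphatase or hexokinase. The rule itself uses no measured value. The 115 members came from 70 clusters or single Unigenes. A total of 68 members were contigs of 23 clusters, in which RSEM divides a read between near-identical contigs, so the value of a single contig is uncertain to that extent.

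The leaf was taken from 3 non-trunking palms (SN7, SN8 and SN9) and from 3 trunking palms (ST1, ST4 and ST5, the control), all grown on peat soil in 1 plantation without a treatment, and each palm gave 1 library. The phenotype follows the GEO labels and the study's list of samples, while another passage of the study's text calls all 6 palms trunking. The sources used here give neither the age nor the cultivar of the palms. Each phenotype was collected at a place of its own, so phenotype and place cannot be told apart. The libraries hold between 17927176 and 18492907 expected counts. In whole leaf, fewer cells of a type and less RNA per cell cannot be told apart.

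Sucrose is the main form in which a leaf exports carbon. Mesophyll cells make it in the cytosol from triose phosphates, through cytosolic fructose-1,6-bisphosphatase, sucrose-phosphate synthase and sucrose-phosphatase. It is cleaved again by sucrose synthase, which yields UDP-glucose and fructose, or by invertases in the cell wall, the vacuole, the cytosol and the organelles, which yield glucose and fructose. Hexokinase phosphorylates these hexoses and is also known as a glucose sensor. SWEET proteins let sugars pass membranes down their gradient, while sucrose transporters (SUT), hexose transporters (STP or MST) and polyol transporters (PLT) are proton symporters.

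For 11 members the Swiss-Prot name and the Nr name were of different kinds of protein. The 4 contigs matched to pea sucrose synthase 2 had the mannosyltransferase ALG2 as their Nr and KEGG match and a weak Swiss-Prot match, with E-values between 3.5e-09 and 1.4e-06. CL5791.Contig2_All, also matched to sucrose synthase, had an uncharacterized protein in Nr and a sulfoquinovosyltransferase in KEGG. The 5 Unigenes matched to Protein SWEETIE are not SWEET carriers. CL86.Contig5_All had a BEL1-like homeodomain protein in Nr, and an invertase in Swiss-Prot and KEGG. These 11 members were kept under the rule, and the counts of members higher and lower at an unadjusted p under 0.05 were the same without them.

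Of the 115 members, 95 were listed in all 6 libraries and 91 passed the filter on low counts. The 24 that did not pass had a median length of 378 nt and mean FPKM of at most 1.28. FPKM, as deposited, is the count of fragments scaled by Unigene length and by the fragments mapped in the library, so levels of different Unigenes can be compared. Together the members held 0.186%, 0.200% and 0.229% of all FPKM in SN7, SN8 and SN9, against 0.166%, 0.168% and 0.163% in ST1, ST4 and ST5. The 10 members of highest mean level carried 50.1% of the summed level. The highest of all was SWEET1a, CL2379.Contig1_All, with a mean of 110.2 FPKM over the 6 libraries.

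The tissue label was checked against marker lists. Mesophyll markers (Rubisco small subunit, chlorophyll a-b binding proteins, photosystem I and oxygen-evolving subunits) summed to between 22033 and 40838 FPKM in non-trunking palms and between 17864 and 34563 FPKM in trunking palms. Vascular markers (APL, phloem protein 2-like and irregular xylem proteins) summed to between 206 and 263 FPKM in non-trunking and between 108 and 272 FPKM in trunking palms, and the words for xylem cysteine proteinase and sieve element occlusion found 0 Unigenes. Markers of meristem or dividing tissue summed to between 428 and 553 FPKM in non-trunking and between 496 and 570 FPKM in trunking palms. Clock genes stood further apart. Morning clock Unigenes (LHY, CCA1 and REVEILLE) summed to between 787 and 936 FPKM in non-trunking and between 326 and 717 FPKM in trunking palms, and 11 of 25 tested were higher at an unadjusted p under 0.05, against 5.43% of all Unigenes tested. Evening clock Unigenes, 12 of the 14 of them matched to GIGANTEA, summed to between 119 and 229 FPKM in non-trunking and between 411 and 580 FPKM in trunking palms, and 8 of 12 tested were lower, against 4.43% of all. The part of sampling hour in the values below was not tested, and the sources used here do not give the hour.

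The comparison asked which sugar genes differed in the leaf of non-trunking palms from that of trunking palms. No Unigene passed the adjusted threshold of the main test. The smallest unadjusted p-values belonged to SWEET2a, polyol transporter, cell wall invertase and vacuolar invertase Unigenes at higher levels in non-trunking palms. Summed over a role, the FPKM lay apart between the groups in polyol transporters (higher) and, narrowly, in neutral invertases (lower). The summed levels of the SWEET, cell wall invertase and vacuolar invertase roles overlapped. Those of sucrose transporters, hexokinases and sucrose-phosphate synthases overlapped as well. Expected counts, rounded to whole numbers, were tested over all 45928 Unigenes that passed the filter with edgeR, by its quasi-likelihood F test (QL test, two-sided) after TMM scaling, and p-values were adjusted by Benjamini-Hochberg. The log2 fold change is non-trunking minus trunking and is given ± its standard error (SE), with 3 palms per group. In this test 0 members had an adjusted p under 0.05, as did 0 of all Unigenes tested (0.0%), and the smallest adjusted p of a member was 0.185. DESeq2 gave an adjusted p to 98 members, and it was under 0.05 in 5, all higher in non-trunking palms. Of all Unigenes to which DESeq2 gave an adjusted p, 1.17% were called in this direction. The likelihood ratio test of edgeR gave an adjusted p under 0.05 to 4 of 91 members, also all higher, against 0.956% of all. These 4 were SWEET2a Unigene788_All, CL8326.Contig2_All, CL2910.Contig1_All and CL86.Contig7_All, and CL2910.Contig3_All was the fifth in DESeq2.

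At an unadjusted QL p under 0.05, 15 of the 91 members tested (16.5%) were higher in non-trunking palms, against 5.43% of all Unigenes tested. A single member (1.10%) was lower, against 4.43% of all. The 15 came from 10 clusters or single Unigenes, and 5 of them were contigs of 1 cluster. Carriers made up 10 of the 15, out of 29 tested, and enzymes 5, out of 61 tested. The 15 were picked by p from the same counts, so a gap between the groups adds no support for them. In all 15 the 3 non-trunking palms lay above the 3 trunking palms in normalized counts. Over all members tested the groups lay apart in this way in 20 members, against 8.71% of all Unigenes, and in 1 member with non-trunking palms below, against 8.55%. On counts summed per cluster, 9 of 50 clusters tested were higher at an unadjusted p under 0.05, against 6.07% of all clusters, and 1 was lower. The median log2 fold change of the members tested was 0.18, against 0.02 over all Unigenes tested. Of the marker lists, only that of evening clock Unigenes had a median below 0, at -1.74. The morning clock list had the highest median, 1.27, with 22 of 25 tested above 0, against 51.4% of all Unigenes tested. Of the mesophyll markers 43 of 49 tested had a log2 fold change above 0, with a median of 0.40. Of the vascular markers 10 of 12 did, with a median of 0.46. The markers of meristem or dividing tissue had 12 of 19 above 0, with a median of 0.31. The part of these lists in the members' values was not tested. With 1 palm left out, between 12 and 16 members were higher. The count of lower members was 0 without ST1, 2 without ST5 and 3 without SN8.

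**Figure D1:**
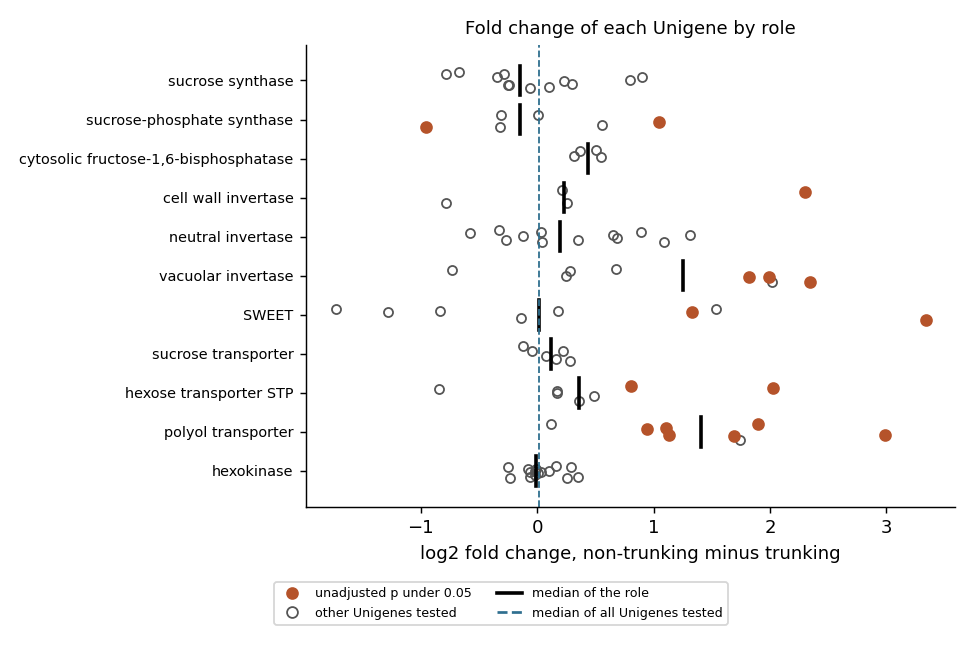
Log2 fold change (non-trunking minus trunking, horizontal axis) of each member tested, by role (rows). Filled points have an unadjusted QL p under 0.05, black bars are the median of a role, and the dashed line is the median of all Unigenes tested, 0.02. The medians of the polyol transporters (1.41) and vacuolar invertases (1.25) lie right of the line, and the hexokinases (median -0.01) lie around it.

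Summed over the members of a role, the FPKM of polyol transporters was 246, 372 and 299 in SN7, SN8 and SN9, against 125, 102 and 99.4 in ST1, ST4 and ST5. This was the role with the widest gap between the groups. The neutral invertases summed to 135, 146 and 147 FPKM in non-trunking palms, against 148, 200 and 173 FPKM in trunking palms. In these sums the groups lay apart by a narrow margin in the other direction. FPKM is not scaled by TMM, and in normalized counts 0 of the 12 neutral invertases tested had groups apart in either direction. Over all Unigenes tested the shares were 8.71% with non-trunking palms above and 8.55% with them below. In the other 9 roles with tested members that are shown in the plot of summed levels the groups overlapped. Sucrose-phosphate synthases summed to between 41.0 and 42.1 FPKM in non-trunking and between 41.2 and 48.4 FPKM in trunking palms. Sucrose transporters were the weakest carriers, at 19.1 to 19.8 FPKM in non-trunking and 16.4 to 19.9 FPKM in trunking palms.

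**Figure D2:**
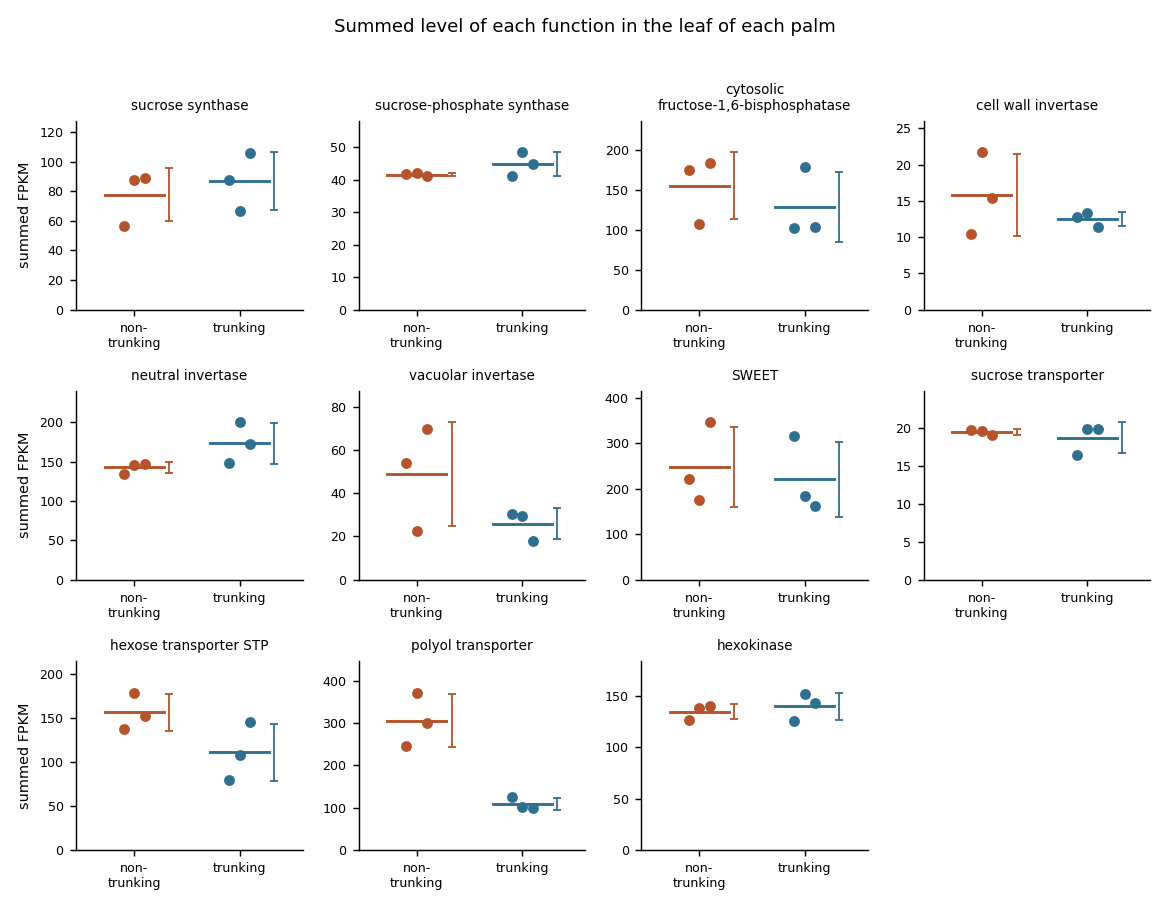
Summed FPKM of the members of each role (vertical axis, from 0) in each palm, non-trunking left and trunking right. Points are palms, lines are means and bars are the SD (n = 3 each). The polyol transporters reach 246 to 372 in non-trunking palms and 99.4 to 125 in trunking palms.

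SWEET2a had the smallest p of all members. Unigene788_All, a single Unigene of 1530 nt, stood at 65.3, 44.7 and 52.0 FPKM in SN7, SN8 and SN9, against 9.48, 4.99 and 2.47 FPKM in ST1, ST4 and ST5. The lowest non-trunking palm lay well above the highest trunking palm. On the log2 scale the fold change was 3.34 ± 0.56 (SE), or 10.1-fold (unadjusted p = 0.000618, adjusted p = 0.185 by edgeR QL), and it stayed between 2.98 and 4.01 with any 1 palm left out. The adjusted p was 1.34e-06 in DESeq2 and 1.46e-05 in edgeR's likelihood ratio test. A SWEET2 of *Arabidopsis* sits in the vacuolar membrane and carries hexoses. The other SWEET2a Unigene, Unigene266_All, was far weaker, at 2.06, 2.23 and 2.61 FPKM in non-trunking palms, against 0.73, 0.83 and 1.28 FPKM in trunking palms. Its log2 fold change was 1.33 ± 0.33 (SE, edgeR QL adjusted p = 0.297).

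In the other SWEET Unigenes tested the groups overlapped. The SWEET1a contig CL2379.Contig1_All, whose relatives in *Arabidopsis* and rice carry glucose or galactose across the plasma membrane, was at 84.1, 70.5 and 159 FPKM in SN7, SN8 and SN9, against 169, 89.2 and 89.5 FPKM in ST1, ST4 and ST5. SN9 and ST1 were the high palms, and the groups overlapped. This gave a log2 fold change of -0.14 ± 0.40 (SE, edgeR QL adjusted p = 0.940). CL2379.Contig2_All, of the same cluster, had 43.1, 47.7 and 88.0 FPKM in non-trunking and 74.6, 38.4 and 45.3 FPKM in trunking palms, with SN9 and ST1 again the highest.

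SWEET17, a carrier of fructose in the vacuolar membrane of *Arabidopsis*, was low in all palms. CL7097.Contig2_All stood at 0.55, 0.39 and 1.78 FPKM in non-trunking palms, against 1.88, 4.25 and 0.74 FPKM in trunking palms (log2 fold change -1.28 ± 0.78, SE). The groups overlapped. SWEET3b, CL6226.Contig1_All, had 2.99, 2.72 and 2.78 FPKM in non-trunking palms, against 0.27, 2.88 and 0.09 FPKM in trunking palms, so ST4 alone of the trunking palms reached the non-trunking level. Of the 8 SWEET Unigenes tested, 4 had a log2 fold change above 0 and 4 below, with a median of 0.02. Of all Unigenes tested, 51.4% lay above 0. The members hold SWEET1a, SWEET2a, SWEET3b and SWEET17 matches. The SWEET proteins known to feed sucrose to the phloem in *Arabidopsis*, SWEET11 and SWEET12, are not among the best Swiss-Prot matches of the members.

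The polyol transporters had the highest median log2 fold change of the roles with all 6 palms. The vacuolar invertases came above them without ST4, with a median of 1.51 against 1.33, and without SN8, with 1.57 against 1.17. In *Arabidopsis*, polyol transporter 5 is a proton symporter of the plasma membrane that takes up linear polyols, inositol and several hexoses. Of the 8 members tested, 5 were contigs of 1 cluster, CL2910, so their values are not independent. All 8 had a log2 fold change above 0, against 51.4% of all Unigenes tested, with a median of 1.41. At an unadjusted p under 0.05, 6 of them were higher, against 5.43% of all Unigenes tested. This count was 5 without ST5, 5 without SN7 and 6 without each of the other palms. CL2910.Contig1_All, the most abundant, was at 54.8, 197 and 128 FPKM in SN7, SN8 and SN9, against 32.8, 33.2 and 36.8 FPKM in ST1, ST4 and ST5. The trunking palms were nearly level, while the non-trunking palms spread widely above them. The log2 fold change was 1.90 ± 0.41 (SE, edgeR QL adjusted p = 0.249), and the adjusted p was 0.00209 in DESeq2.

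CL2910.Contig5_All followed another order among the palms. It had 95.4, 49.4 and 80.2 FPKM in SN7, SN8 and SN9, against 36.8, 25.4 and 12.0 FPKM in ST1, ST4 and ST5. SN8, the highest palm for the first contig, was the lowest non-trunking palm here. Its log2 fold change was 1.69 ± 0.50 (SE, edgeR QL adjusted p = 0.372). CL2910.Contig3_All had 19.2, 30.3 and 20.3 FPKM in non-trunking palms, against 11.3, 9.92 and 11.9 FPKM in trunking palms, a log2 fold change of 1.13 ± 0.26 (SE). Its adjusted p was 0.259 by edgeR QL and 0.0305 in DESeq2.

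Since the 5 contigs of this cluster may share reads, their counts were also summed. The sum stood at 204, 315 and 252 FPKM in SN7, SN8 and SN9, against 95.6, 79.1 and 77.1 FPKM in ST1, ST4 and ST5. The difference of the whole cluster was a log2 fold change of 1.61 ± 0.25 (SE, unadjusted p = 0.000402, adjusted p = 0.142 by QL on clusters). A separate polyol transporter 5 Unigene, Unigene307_All, had 24.6, 44.7 and 30.9 FPKM in non-trunking palms, against 21.2, 15.7 and 16.9 FPKM in trunking palms, a log2 fold change of 0.94 ± 0.28 (SE). Unigene3655_All, matched to polyol transporter 4, was among the weak ones, with 2.70, 4.42 and 3.28 FPKM in non-trunking and 2.56, 2.87 and 4.44 FPKM in trunking palms. Its log2 fold change was 0.12 ± 0.33 (SE).

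Hexose transporters of the STP family take up hexoses from the cell wall space. The most abundant was CL320.Contig1_All, matched to rice MST3, at 66.9, 72.7 and 70.4 FPKM in SN7, SN8 and SN9, against 43.0, 48.9 and 64.8 FPKM in ST1, ST4 and ST5. The groups did not overlap in FPKM but overlapped in normalized counts, with log2 fold change 0.49 ± 0.26 (SE, edgeR QL adjusted p = 0.593). Unigene25924_All, matched to sugar transport protein 7, which carries arabinose and xylose in *Arabidopsis*, was at 42.9, 36.3 and 53.8 FPKM in non-trunking palms, against 16.8, 39.2 and 24.4 FPKM in trunking palms. Its groups overlapped in FPKM through SN8 and ST4 and lay apart in normalized counts. On the log2 scale the fold change was 0.81 ± 0.32 (SE, unadjusted p = 0.0389, edgeR QL adjusted p = 0.474).

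For Unigene9865_All, matched to rice MST1, a single palm, SN8, stood far above the others. It had 3.81, 21.9 and 6.49 FPKM in SN7, SN8 and SN9, against 1.51, 2.59 and 3.93 FPKM in ST1, ST4 and ST5. This gave a log2 fold change of 2.03 ± 0.68 (SE, edgeR QL adjusted p = 0.421), and 0.98 without SN8. Unigenes of 2 other hexose transporters varied among palms of the same phenotype. CL1083.Contig1_All, matched to rice MST4, was at 10.7, 25.0 and 4.20 FPKM in non-trunking palms, against 5.05, 2.89 and 28.9 FPKM in trunking palms. Sugar transport protein 14, a galactose carrier in *Arabidopsis*, was highest in the same palms, SN8 and ST5, with 0.10, 2.96 and 0.49 FPKM of Unigene25814_All in non-trunking palms, against 1.70, 0.50 and 4.08 FPKM in trunking palms.

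Of the 14 hexose transporter members, 7 were tested. A log2 fold change above 0 was found in 6 of these, against 51.4% of all Unigenes tested. At an unadjusted p under 0.05, 2 were higher, against 5.43% of all. That count was 0 without ST1, 1 without ST4 or without any 1 of the non-trunking palms, and 2 without ST5. The members counted were not always the same. Without ST5 they were Unigene9865_All and CL320.Contig1_All, while Unigene25924_All had an unadjusted p of 0.101 by edgeR QL. Over the 6 fits without 1 palm, Unigene25924_All was under 0.05 in 2 and Unigene9865_All in 3.

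Sucrose transporters had the narrowest range of log2 fold changes among the carriers. The 6 members were matched to rice SUT4 and SUT2, of which SUT2 lies in the vacuolar membrane in rice, and the phloem-loading type SUT1 is not among the best Swiss-Prot matches of the members. The most abundant, CL850.Contig3_All, was at 7.29, 7.07 and 6.26 FPKM in SN7, SN8 and SN9, against 6.05, 8.11 and 6.66 FPKM in ST1, ST4 and ST5. CL850.Contig2_All had 6.29, 4.47 and 4.32 FPKM in non-trunking palms, against 3.88, 4.68 and 4.84 FPKM in trunking palms. Both pairs of groups overlapped. The log2 fold changes of the 6 members lay between -0.12 and 0.28. The one of CL850.Contig5_All, which was listed at 0 in SN7, SN8 and ST1, rested on SN9, and it was -0.04 ± 1.86 (SE) with all palms and -7.06 without SN9, a fitted value against libraries at 0 that gives no size. The summed cluster of SUT4 contigs had 0.12 ± 0.21 (SE).

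**Figure D3:**
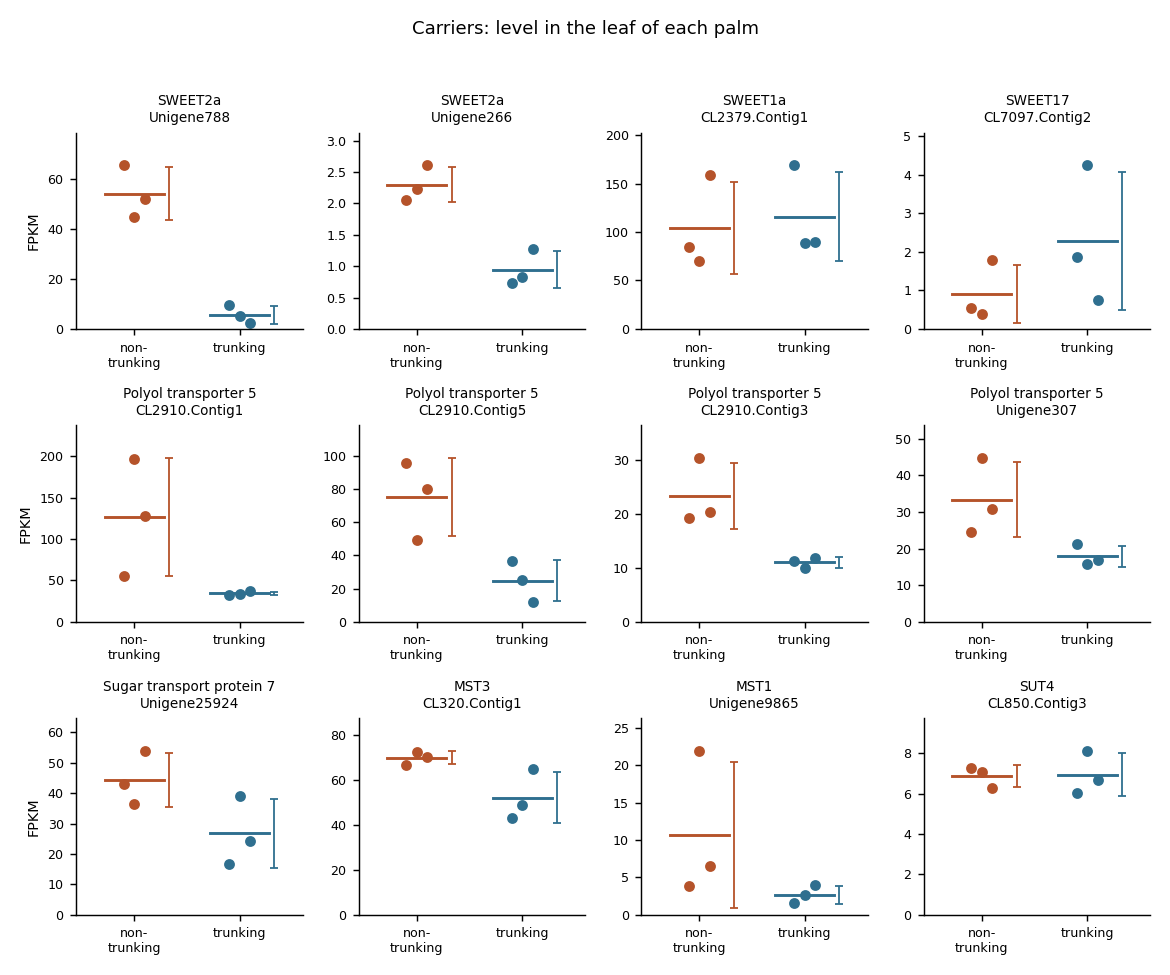
FPKM (vertical axis, from 0, each panel with its own scale) of 12 carrier Unigenes in each palm, non-trunking left and trunking right. Points are palms, lines are means and bars are the SD (n = 3 each). Unigene788_All (SWEET2a) reaches 44.7 to 65.3 in non-trunking palms and 2.47 to 9.48 in trunking palms, while SWEET1a and SUT4 overlap.

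Cell wall invertases cleave sucrose outside the cell. Unigenes of this role were weak, and their largest difference lay in CL8326.Contig2_All, matched to rice insoluble isoenzyme 3. It was at 2.45, 7.79 and 3.57 FPKM in SN7, SN8 and SN9, against 0.64, 0.99 and 1.22 FPKM in ST1, ST4 and ST5. All non-trunking palms were above all trunking palms. The log2 fold change was 2.30 ± 0.48 (SE), or 4.94-fold (adjusted p = 0.232 by edgeR QL and 0.00289 in DESeq2). The other contig of the cluster, CL8326.Contig1_All, ran the other way, with 1.21, 1.69 and 1.11 FPKM in non-trunking and 2.54, 3.06 and 1.67 FPKM in trunking palms, a log2 fold change of -0.78 ± 0.36 (SE). Summed over both contigs the log2 fold change was 1.00 ± 0.36 (SE, edgeR QL adjusted p = 0.385). Thus the first contig stood further apart than the cluster did.

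Insoluble isoenzyme 4 was the more abundant cell wall invertase, and its groups overlapped. CL9504.Contig1_All had 3.12, 6.99 and 5.37 FPKM in non-trunking palms, against 5.33, 4.44 and 3.88 FPKM in trunking palms, a log2 fold change of 0.21 ± 0.30 (SE). CL9504.Contig2_All had 2.94, 5.06 and 5.21 FPKM in non-trunking and 3.13, 4.47 and 3.77 FPKM in trunking palms. The KEGG match of both contigs was a fructan fructosidase rather than an invertase.

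Vacuolar invertase splits sucrose stored in the vacuole. Of the 8 members, all tested, 6 were contigs of 1 cluster, CL86. A log2 fold change above 0 was found in 7 of the 8, against 51.4% of all Unigenes tested, with a median of 1.25. At an unadjusted p under 0.05, 3 were higher, against 5.43% of all Unigenes tested. That count was 4 without SN8 or without ST4, 3 without SN7 and 2 without each of the other palms. CL86.Contig7_All, matched to maize beta-fructofuranosidase 1, was at 8.57, 2.72 and 6.96 FPKM in SN7, SN8 and SN9, against 1.00, 2.07 and 0.88 FPKM in ST1, ST4 and ST5. SN8 was the lowest non-trunking palm and still above ST4, the highest trunking palm. Its log2 fold change was 2.34 ± 0.54 (SE), or 5.05-fold (adjusted p = 0.269 by edgeR QL and 0.00456 in DESeq2).

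CL86.Contig6_All, the most abundant of this role, had 19.9, 6.28 and 17.8 FPKM in non-trunking palms, against 4.32, 6.70 and 2.42 FPKM in trunking palms. SN8 was below ST4 in FPKM, though not in normalized counts. On the log2 scale the fold change was 1.82 ± 0.55 (SE, edgeR QL adjusted p = 0.373). Other contigs of the cluster had overlapping groups. CL86.Contig2_All had 7.31, 3.62 and 11.0 FPKM in non-trunking and 8.56, 4.94 and 4.89 FPKM in trunking palms, and CL86.Contig3_All, the weakest of these contigs in SN8, had a log2 fold change of -0.73 ± 0.80 (SE). Over the summed cluster of 6 contigs the groups overlapped, at 48.4, 17.8 and 58.2 FPKM in SN7, SN8 and SN9, against 29.9, 25.1 and 16.9 FPKM in ST1, ST4 and ST5. The log2 fold change of the sum was 0.95 ± 0.45 (SE, unadjusted p = 0.0744). A vacuolar invertase outside the cluster, Unigene3830_All, had 2.86, 1.84 and 7.35 FPKM in non-trunking palms, against 0.75, 1.99 and 0.37 FPKM in trunking palms, a log2 fold change of 1.99 ± 0.71 (SE).

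Neutral invertases act in the cytosol, plastids and mitochondria. The 2 most abundant were lower on average in non-trunking palms, without passing a test. Unigene29454_All, matched to the cytosolic invertase CINV2 of *Arabidopsis*, was at 26.3, 59.2 and 34.5 FPKM in SN7, SN8 and SN9, against 70.2, 56.2 and 57.4 FPKM in ST1, ST4 and ST5. SN8 was at the level of the trunking palms, and the other non-trunking palms were below them. This gave a log2 fold change of -0.58 ± 0.33 (SE, edgeR QL adjusted p = 0.620), and -0.95 without SN8. CL5798.Contig2_All, matched to the mitochondrial type of rice, had 32.0, 29.5 and 37.9 FPKM in non-trunking palms, against 27.1, 56.7 and 43.0 FPKM in trunking palms, and ST1 was the lowest palm of all. Of the 12 neutral invertases tested 8 had a log2 fold change above 0, against 51.4% of all Unigenes tested, and 0 had an unadjusted p under 0.05.

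Among the sucrose synthases, 0 members had an unadjusted p under 0.05. CL1508.Contig3_All, matched to sucrose synthase 2 of tulip, was at 6.99, 15.8 and 16.3 FPKM in SN7, SN8 and SN9, against 14.2, 11.8 and 20.5 FPKM in ST1, ST4 and ST5. The groups overlapped, with log2 fold change -0.25 ± 0.35 (SE). The sucrose synthase 4 contigs were lower on average in non-trunking palms. CL98.Contig2_All had 5.22, 10.5 and 12.3 FPKM in non-trunking and 18.4, 10.9 and 18.7 FPKM in trunking palms, a log2 fold change of -0.78 ± 0.36 (SE, edgeR QL adjusted p = 0.546). CL98.Contig1_All had 3.01, 3.63 and 4.94 FPKM in non-trunking and 7.13, 4.63 and 6.95 FPKM in trunking palms (log2 fold change -0.67 ± 0.37, SE).

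These 2 contigs are short pieces of a cluster whose long contigs fell outside the rule, because their best Nr match is in the banana *Musa acuminata*. CL98.Contig3_All, of 2991 nt, was at 16.4, 30.4 and 28.4 FPKM in SN7, SN8 and SN9, against 38.8, 32.6 and 56.7 FPKM in ST1, ST4 and ST5, which makes it the most abundant sucrose synthase Unigene listed. All non-trunking palms were below all trunking palms in FPKM, but in normalized counts the groups overlapped, with 89.5 CPM in SN8 and 87.5 CPM in ST4. Its log2 fold change was -0.75 ± 0.31 (SE, unadjusted p = 0.0497, edgeR QL adjusted p = 0.507). The other long contig, CL98.Contig4_All, of 3257 nt, had 4.62, 5.77 and 6.45 FPKM in non-trunking palms, against 12.2, 6.64 and 11.3 FPKM in trunking palms. Its groups lay apart in FPKM and in normalized counts, narrowly so at ST4. The log2 fold change of this contig was -0.81 ± 0.30 (SE, unadjusted p = 0.0296, edgeR QL adjusted p = 0.449). Summed over the 4 contigs, the cluster had 29.2, 50.3 and 52.2 FPKM in non-trunking palms, against 76.5, 54.8 and 93.6 FPKM in trunking palms, a log2 fold change of -0.77 ± 0.29 (SE, unadjusted p = 0.0323, adjusted p = 0.402 by QL on clusters).

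The most abundant enzymes of sucrose synthesis had overlapping groups. Sucrose-phosphate synthase CL2622.Contig3_All was at 15.1, 10.2 and 15.7 FPKM in SN7, SN8 and SN9, against 12.3, 24.6 and 17.2 FPKM in ST1, ST4 and ST5, a log2 fold change of -0.31 ± 0.32 (SE). CL1338.Contig3_All had 12.9, 18.7 and 13.3 FPKM in non-trunking palms, against 18.3, 10.2 and 17.5 FPKM in trunking palms, with 0.01 ± 0.33 (SE) on the log2 scale. Weaker contigs of both clusters stood apart from these. CL1338.Contig2_All was higher in all non-trunking palms, at 3.13, 3.85 and 3.66 FPKM, against 1.25, 2.55 and 1.64 FPKM in trunking palms, a log2 fold change of 1.05 ± 0.27 (SE, edgeR QL adjusted p = 0.310). CL2622.Contig2_All was the single lower member at an unadjusted p under 0.05, with 1.25, 1.09 and 0.84 FPKM in non-trunking palms, against 1.94, 3.29 and 1.45 FPKM in trunking palms, a log2 fold change of -0.95 ± 0.37 (SE, edgeR QL adjusted p = 0.468). Summed, the CL1338 cluster had a log2 fold change of 0.17 ± 0.27 (SE) and the CL2622 cluster one of -0.36 ± 0.29 (SE).

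Cytosolic fructose-1,6-bisphosphatase commits triose phosphates to sucrose. Its 2 most abundant contigs had palms of both phenotypes at each of 2 levels. CL8350.Contig2_All was at 88.7, 48.6 and 89.5 FPKM in SN7, SN8 and SN9, against 48.6, 89.0 and 50.1 FPKM in ST1, ST4 and ST5. SN7, SN9 and ST4 were near one level and SN8, ST1 and ST5 near another. CL8350.Contig4_All split the palms in the same way, with 72.9, 39.1 and 73.5 FPKM in non-trunking palms and 40.7, 75.7 and 43.1 FPKM in trunking palms. Their log2 fold changes were 0.37 ± 0.36 and 0.32 ± 0.37 (SE). The mesophyll marker sum was also highest in SN7, SN9 and ST4, at 40838, 35142 and 34563 FPKM. It was lower in SN8, ST1 and ST5, at 22033, 26267 and 17864 FPKM, and its part in this enzyme's levels was not tested. In the 2 weaker members of the 4, CL8350.Contig1_All and Unigene26699_All, non-trunking palms lay above trunking palms in normalized counts, against 8.71% of all Unigenes tested. In FPKM their groups overlapped. Their log2 fold changes were 0.51 ± 0.36 and 0.55 ± 0.27 (SE).

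Hexokinases had log2 fold changes close to 0. All 15 tested members lay between -0.25 and 0.35 on the log2 scale, with a median of -0.01, and 0 had an unadjusted p under 0.05. In normalized counts the groups lay apart in 1 of the 15, with non-trunking palms above, against 8.71% of all Unigenes tested. This was Unigene13614_All, at 35.1, 36.4 and 34.9 CPM in SN7, SN8 and SN9, against 32.2, 30.7 and 32.1 CPM in ST1, ST4 and ST5. CL8836.Contig1_All, matched to rice hexokinase-2, was at 18.4, 29.7 and 22.5 FPKM in SN7, SN8 and SN9, against 27.4, 26.2 and 32.2 FPKM in ST1, ST4 and ST5. CL217.Contig7_All had 22.8, 21.6 and 17.7 FPKM in non-trunking and 18.6, 27.8 and 20.9 FPKM in trunking palms. Both overlapped, with log2 fold changes of -0.23 ± 0.24 and -0.02 ± 0.26 (SE).

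**Figure D4:**
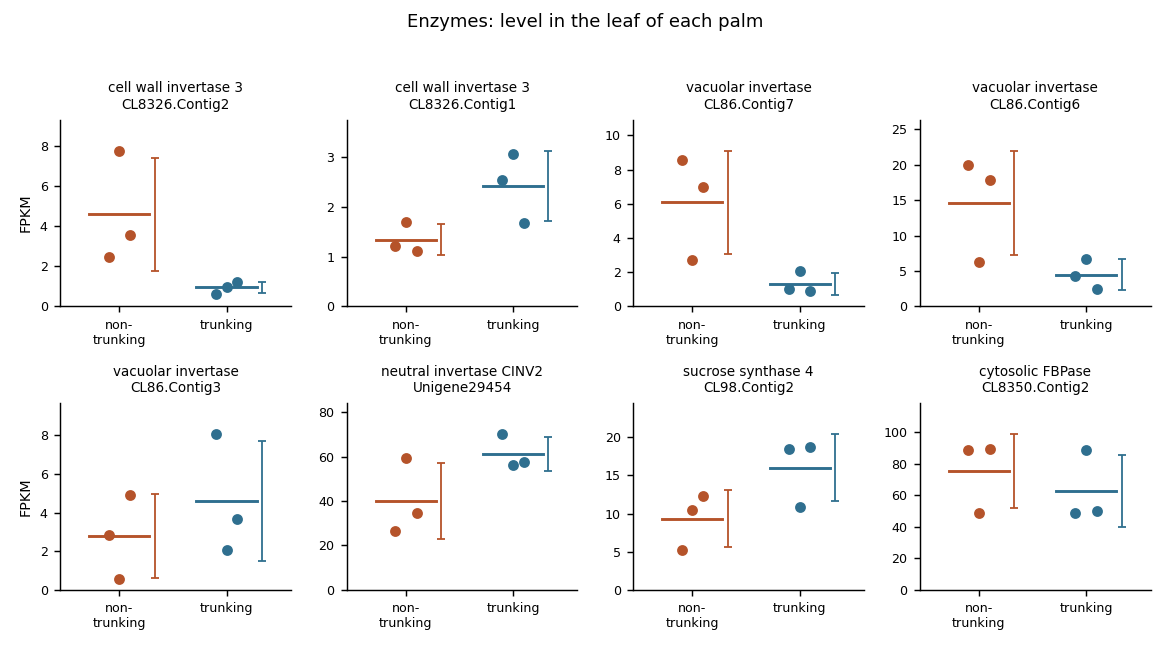
FPKM (vertical axis, from 0, each panel with its own scale) of 8 enzyme Unigenes in each palm, non-trunking left and trunking right. Points are palms, lines are means and bars are the SD (n = 3 each). CL8326.Contig2_All and CL86.Contig7_All are higher in all non-trunking palms, other contigs of the same clusters are not, and CL8350.Contig2_All (cytosolic FBPase) has palms of both groups near 49 and near 89.

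Other genes of the pathway were taken by their Swiss-Prot names, with a palm match in Nr. Of 174 tested, 6 were higher in non-trunking palms at an unadjusted p under 0.05 (against 5.43% of all Unigenes) and 14 were lower (against 4.43%), and 0 had an adjusted p under 0.05. These totals include Unigenes outside the pathway that the search words also took. They were 22 phosphofructokinases, with 4 lower and 0 higher, and 21 calcium pumps, with 1 lower and 0 higher. Carriers of the ERD6-like and monosaccharide-sensing families, which move sugars across the vacuolar membrane, had 4 lower and 0 higher of 18 tested. The summed level of this list was 113, 138 and 132 FPKM in SN7, SN8 and SN9, against 198, 169 and 203 FPKM in ST1, ST4 and ST5. The contig CL9651.Contig1_All, matched to ERD6-like 16, was at 7.93, 20.6 and 13.8 FPKM in non-trunking palms, against 40.8, 33.2 and 37.5 FPKM in trunking palms, a log2 fold change of -1.37 ± 0.33 (SE, edgeR QL adjusted p = 0.278).

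Galactinol and raffinose synthases, which build the raffinose sugars from sucrose, had 2 higher and 1 lower of 19 tested at an unadjusted p under 0.05. Over all Unigenes tested the shares were 5.43% higher and 4.43% lower. A log2 fold change above 0 was found in 17 of the 19, against 51.4% of all, with a median of 0.88. The 20 Unigenes of this list came from 9 clusters or single Unigenes. Their summed level was 2069, 2067 and 1848 FPKM in non-trunking palms, against 1449, 1479 and 501 FPKM in trunking palms, and ST5 stood far below the others. Phosphoglucomutase and phosphoglucose isomerase, which interconvert hexose phosphates, had 3 lower (against 4.43% of all) and 0 higher of 7 tested, all 3 of plastid type. Sucrose-phosphatase, the last step of sucrose synthesis, had a median log2 fold change of 0.85 over 13 tested, with 0 at an unadjusted p under 0.05.

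Fructokinases had 2 higher and 1 lower of 18 tested, beside 0 higher and 4 lower of 22 phosphofructokinases that the search word also took. Of all Unigenes tested, 5.43% were higher and 4.43% lower at an unadjusted p under 0.05. Plastid carriers of sugar phosphates and glucose had 1 higher and 0 lower of 32. The proton pumps of the plasma membrane, which supply the gradient for the symporters, had 1 higher and 0 lower of 7, beside 0 higher and 1 lower of 21 calcium pumps taken by the same words. UDP-glucose pyrophosphorylases, 12 of the 14 of chloroplast type, and the enzymes of fructose 2,6-bisphosphate had 0 in either direction. The single inhibitor of fructosidase was not tested.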

How the data were processed

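RNA from the leaf of 6 palms was sequenced on the BGISEQ-500 platform. The authors built the Unigenes from filtered reads by Trinity assembly and TGICL clustering, then used Bowtie2 for mapping and RSEM for expression, with versions that the sources used here do not give. The deposited values are the expected count per Unigene, which is not normalized, and the FPKM, both from RSEM, with the Unigene length and its database matches. Unigenes below an FPKM of 0.01 are not listed for a library and were set to 0.

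Expected counts were rounded and tested with edgeR 4.0.16 in R 4.3.3 (filterByExpr, TMM, glmQLFit, glmQLFTest). The standard error is the size of the log2 fold change divided by the square root of F. Alternatives were DESeq2 1.42.0, and limma 3.58.1 with log2(FPKM + 1) or log2(FPKM + 0.1). The fits were tested on simulated data, where DESeq2 and the likelihood ratio test made more false calls at the estimated dispersion than their adjusted threshold allows. The simulated counts were independent and used edgeR's own dispersion estimates, so they do not show whether the calls for these members are false. Levels per palm are FPKM as deposited. Normalized counts are CPM with TMM factors, between 0.824 (SN7) and 1.13 (SN9). Tables were joined with Python 3.11.15 and pandas 2.3.3.

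The members, lists and tests were chosen with earlier results of these data known. Named Unigenes were the 2 of highest mean FPKM in each role and the 6 with the smallest p in each direction. SWEET3b, MST1, MST4, sugar transport protein 14, polyol transporter 4, Unigene307_All, Unigene3830_All, CL86.Contig3_All, CL1338.Contig2_All, CL98.Contig3_All, CL98.Contig4_All, CL850.Contig5_All, Unigene13614_All and CL9651.Contig1_All were named after their values were seen. So were CL8350.Contig1_All and Unigene26699_All. For 3 palms against 3, the smallest p of an exact permutation test is 0.1. No sequences were printed.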

Additional observations from a re-analysis of the deposited data

How the results depend on the processing

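No paired analysis was possible because the 2 phenotypes share no replicate numbers. With other scaling (RLE, library size alone) or filters, between 14 and 17 members were higher and 1 lower at an unadjusted p under 0.05, and 0 had an adjusted p under 0.05. The count with an adjusted p under 0.05 was 4 in edgeR's likelihood ratio test, 5 in DESeq2 and 1 in limma without a filter (SWEET2a, Unigene788_All). It was 0 in each fit without 1 palm. The median log2 fold change was 0.11 in limma without a filter, and 0.15 to 0.23 with 1 palm left out. The count of lower members was 0 in limma with a filter at either pseudocount and 4 by the Swiss-Prot words alone, where the species of the Nr match was ignored, and 0 to 3 with 1 palm left out. On counts summed per cluster, 9 of 50 clusters tested were higher and 1 was lower at an unadjusted p under 0.05. Leaving out the 11 members with another kind of protein in Nr, a choice made after the data were seen, left the edgeR quasi-likelihood counts at 0 adjusted, 15 higher and 1 lower, and it was not run in the other settings.

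Directions near 0 were not stable. CL1338.Contig3_All had a log2 fold change of -0.03 with library size alone and -0.01 in each limma fit, and CL850.Contig3_All had -0.01 in these fits. With 1 palm left out, the range was -0.25 to 0.20 for CL1338.Contig3_All, -0.46 to 0.02 for CL1508.Contig3_All, -0.24 to 0.15 for CL217.Contig7_All, -0.43 to 0.29 for CL2379.Contig1_All, -0.08 to 0.56 for CL2379.Contig2_All, -0.11 to 0.22 for CL850.Contig3_All, -0.08 to 0.45 for CL850.Contig2_All and -0.07 to 0.39 for CL9504.Contig1_All. The cause was not tested. At this depth 24 members had too few counts for the filter.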
